A study of Mus musculus with 25 samples.

Results

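The matrix proteases and their inhibitors examined here were the genes with an Mmp, Adamts or Timp symbol that the table of sorted spinal cord cells annotated as protein-coding. The rule selected 45 of the 43693 genes in that table, namely 22 matrix metalloproteinases (Mmp), 19 ADAMTS proteases (Adamts) and 4 tissue inhibitors of metalloproteinases (Timp). The rule itself used no measured value, although the members were chosen with earlier results of these data known. The same genes were followed by gene identifier into the other tables. Matrix metalloproteinases are zinc proteases that cleave collagens, laminins, elastin, proteoglycans and cell-surface proteins. Most are made as inactive precursors that other proteases switch on. ADAMTS proteases are secreted zinc proteases with thrombospondin repeats that cleave hyaluronan-binding proteoglycans or trim procollagens. TIMPs bind the active sites of MMPs and of some ADAMTS proteases, though not every TIMP inhibits every protease. The balance of proteases and TIMPs is held to set how fast extracellular matrix is turned over, including in the scar that forms after spinal cord injury.

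The study measured RNA in 25 libraries of mouse cells and tissue. For the sorted set, mice of genotype GFAP-Cre-/+:R26-tdT-/+ carried a tdTomato reporter switched on by a Cre driven from the GFAP promoter, so that cells with present or past GFAP promoter activity are red. Controls and injured mice shared this genotype. Sham mice had a laminectomy at thoracic level 9 and were taken after 7 days (3 libraries). Injured mice had a 60 kdyn contusion at that level and were taken after 7 days (3 libraries), 1 month (3 libraries) or 3 months (2 libraries, replicates 1 and 3). The cord at the injury site was digested, cleared of myelin and sorted for tdTomato. Whole epicentre tissue of C57BL/6 mice with the same injury was collected at 1 and 3 months (3 libraries each), with no uninjured tissue. Each cord library pooled 3 mice. Primary astrocyte cultures from C57BL/6 brains of postnatal days 4 to 7 received a control or a knockdown lentivirus against Zeb2os, a noncoding RNA, or against Zeb2, a zinc-finger transcription factor (2 libraries per group). Selection with 1 µg/ml puromycin began 24 hours after transduction in the Zeb2os set and 48 hours after it in the Zeb2 set. Nothing states that the 2 libraries of a culture group came from separate cultures, so p-values there measure the spread between libraries, which may be technical. Sham cells were taken at 7 days only, so time since surgery and age cannot be told apart from injury at 1 and 3 months.

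Library totals ran from 15712423 to 50211071 counts in the sorted set and from 15423131 to 27138885 in tissue. The Zeb2os libraries held 45627745 to 158099842 counts and the Zeb2 libraries 29027058 to 65434619. The sorted libraries held all 8 astrocyte markers checked, yet at a summed 977 to 4060 CPM (counts-per-million), against 10439 to 13756 CPM in tissue. Markers of oligodendrocyte precursors summed to 5539 to 9041 CPM in sorted cells and 559 to 728 CPM in tissue. Against sham, 6 of 8 astrocyte markers were lower in the sorted cells at each of the 3 times after injury, whereas Gfap was higher at 7 days (166 to 354 CPM in sham, 1135 to 1440 CPM at 7 days). Of the other lists, 7, 7 and 8 of 8 microglia and macrophage markers and 7, 7 and 6 of 8 fibroblast markers were higher at 7 days, 1 month and 3 months, with the fibroblast list's Pdgfra lower at 7 days. At the same times 7, 5 and 6 of 7 endothelial markers were higher and 5, 5 and 3 of 5 ependymal markers lower. Over all genes 9.87%, 6.23% and 6.78% were higher and 8.41%, 5.83% and 4.93% lower at these times. In such bulk samples, fewer cells of a type and less RNA per cell cannot be told apart. Zeb2, the target of one knockdown, had 147 and 134 CPM in its controls and 23.2 and 16.1 CPM after knockdown. Zeb2os had 5.82 and 3.80 CPM in its controls and 3.14 and 4.32 CPM in the libraries labelled Zeb2os knockdown, so its groups overlapped.

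The members were spread over many chromosomes except for 9 Mmp genes that lay side by side on chromosome 9 (GRCm38, chr9:7272514-7699585, 427 kb), in the order Mmp13, Mmp12, Mmp1b, Mmp3, Mmp10, Mmp8, Mmp27, Mmp20 and Mmp7. This cluster held Mmp12, Mmp3 and Mmp13, which had 0 counts in at least 2 of the 3 sham libraries and were called higher after injury. RefSeq promoter windows (GRCm38.p6, 250 bases before to 50 after an annotated start) matched 31 of the 45 members by symbol. The sequence TGANTCA, the palindromic binding motif of AP-1, was in 7.81% of the 32851 windows of that table and in windows of 7 members. All of the 7 belonged to the cluster, which lacked it only for Mmp8 and Mmp27. A related sequence, TGAGTAA, searched on both strands, was in 2.68% of windows and among members only in that of Timp1. The windows of the genes described first below are shown 5′ to 3′ on the plus strand, with these matches in capitals. Mmp12 has 2 annotated starts, and only the downstream window held a match, 44 bases before the start. The matches began 46 bases before the start of Mmp3, 35 bases before that of Mmp13, and 26 bases after the start in Timp1.
Mmp13, chr9:7272264-7272563: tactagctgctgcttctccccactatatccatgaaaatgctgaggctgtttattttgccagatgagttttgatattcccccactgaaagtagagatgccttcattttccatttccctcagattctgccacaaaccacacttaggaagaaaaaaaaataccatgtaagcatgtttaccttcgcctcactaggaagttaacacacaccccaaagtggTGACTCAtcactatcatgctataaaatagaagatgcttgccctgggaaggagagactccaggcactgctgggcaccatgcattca
Mmp12, upstream start, chr9:7344147-7344446: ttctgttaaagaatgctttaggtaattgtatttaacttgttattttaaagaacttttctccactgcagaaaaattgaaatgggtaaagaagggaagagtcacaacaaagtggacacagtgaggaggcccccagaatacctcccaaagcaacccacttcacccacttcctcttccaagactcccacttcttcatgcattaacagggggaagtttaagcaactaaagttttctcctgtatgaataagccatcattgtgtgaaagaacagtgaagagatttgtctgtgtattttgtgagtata
Mmp12, downstream start, chr9:7347124-7347423: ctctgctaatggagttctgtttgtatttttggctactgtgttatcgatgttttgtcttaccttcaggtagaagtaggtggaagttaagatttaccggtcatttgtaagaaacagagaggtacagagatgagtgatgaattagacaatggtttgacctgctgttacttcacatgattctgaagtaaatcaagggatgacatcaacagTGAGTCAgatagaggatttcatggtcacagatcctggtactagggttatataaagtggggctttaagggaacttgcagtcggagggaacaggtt
Mmp3, chr9:7445572-7445871: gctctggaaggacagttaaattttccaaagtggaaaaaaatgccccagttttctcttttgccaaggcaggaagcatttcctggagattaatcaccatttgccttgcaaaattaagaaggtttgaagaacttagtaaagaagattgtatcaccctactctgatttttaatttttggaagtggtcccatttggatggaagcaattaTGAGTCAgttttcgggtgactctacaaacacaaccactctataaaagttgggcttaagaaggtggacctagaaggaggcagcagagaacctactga
Timp1, chrX:20869916-20870215: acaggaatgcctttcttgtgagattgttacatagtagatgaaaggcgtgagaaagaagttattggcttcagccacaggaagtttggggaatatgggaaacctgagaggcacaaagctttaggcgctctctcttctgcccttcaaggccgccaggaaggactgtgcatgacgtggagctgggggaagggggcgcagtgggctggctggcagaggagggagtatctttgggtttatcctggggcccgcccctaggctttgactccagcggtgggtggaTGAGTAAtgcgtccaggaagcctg
A match of letters is a description of these windows and no measure of AP-1 binding.

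Per kilobase of annotated exon, the member with the highest mean level in sham sorted cells was Timp2 at 93.2 CPM per kb. Adamts1 followed at 59.3, Timp3 at 51.5, Mmp15 at 49.5, Mmp2 at 34.5 and Timp4 at 33.4 CPM per kb. Adamts1 is a proteoglycan-cleaving protease, Mmp15 a membrane-anchored protease and Mmp2 the constitutive gelatinase. Timp2 led at every later time too, reaching 243 CPM per kb at 3 months, and Adamts1 was next in each sorted group. Of the 45 members, 40 passed the low-count filter in the sorted set. The 5 that did not were Adamts13, Mmp10, Mmp1b, Mmp20 and Mmp7.

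Each time after injury was compared with the same 3 sham libraries, so the 3 comparisons are not independent. At 7 days, 11 of the 40 tested members were called higher (9.87% of all 24286 genes tested) and 2 lower (8.41%), with edgeR's quasi-likelihood test at an adjusted p under 0.05. The counts were 12 higher (background 6.23%) and 2 lower (5.83%) at 1 month. At 3 months they were 7 higher (6.78%) and 3 lower (4.93%). The median log2 change of the tested members was 0.61, 0.82 and 0.32 at the 3 times, beside -0.06, -0.02 and -0.10 over all genes tested. Without overlap, 20, 15 and 16 of the 40 members lay above sham and 3, 2 and 5 below it at the 3 times. With 2 or 3 libraries per group such separation does not mark a change by itself, and its share over all genes was not computed. In all, 19 members were called in at least 1 comparison and 5 in all 3: Mmp12, Timp1, Timp2 and Adamts2, higher, and Adamts20, lower. By family, the ADAMTS genes had 6 higher and 2 lower of 18 tested at 7 days, 6 higher and 1 lower at 1 month, and 2 higher and 2 lower at 3 months. The 18 tested Mmp genes had 3, 4 and 3 higher at the 3 times and none lower.

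**Figure D1:**
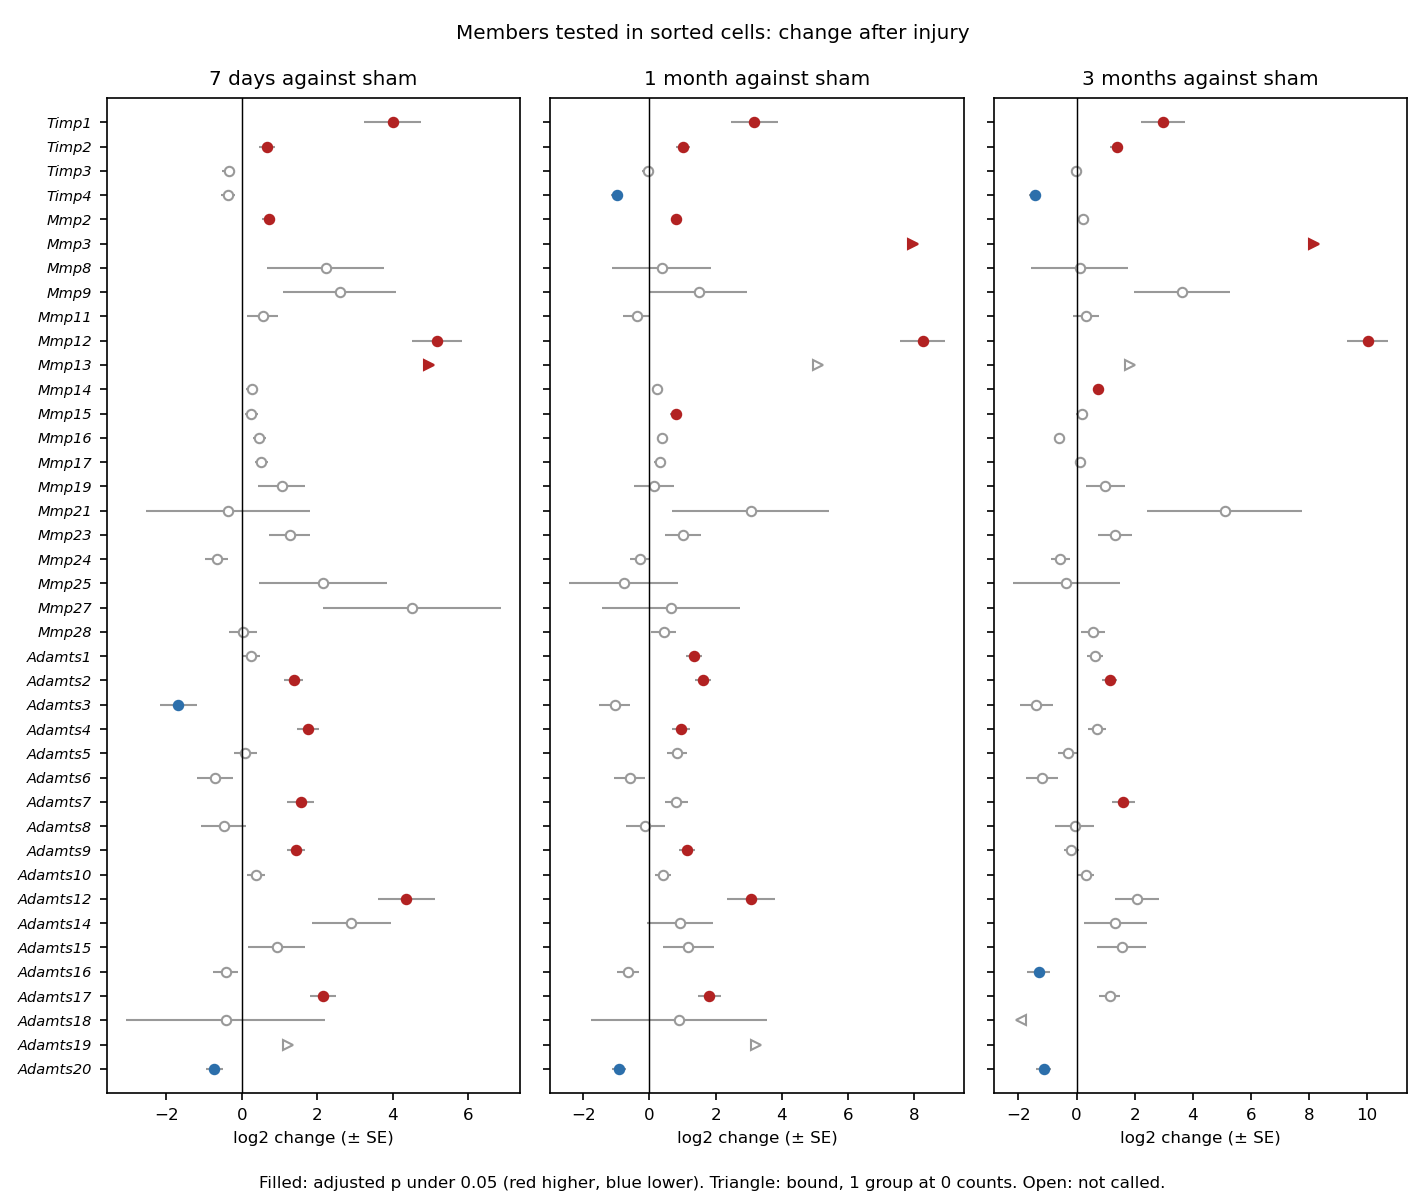
Log2 change (± SE) of the 40 tested members in sorted tdTomato+ cells at 7 days, 1 month and 3 months against the shared sham group. Filled red and blue points had an adjusted p under 0.05 (edgeR), open points did not, and triangles are bounds for genes at 0 counts in 1 group. Nothing is drawn for Mmp3 at 7 days and Adamts19 at 3 months, where both groups were at 0 counts. Mmp27 at 3 months is also not drawn, since its few sham counts gave no usable bound. Mmp12 lies farthest to the right at 3 months, at 10.02.

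The 4 inhibitors went separate ways after injury. Timp1, the TIMP most often induced by cytokines and injury, rose from near 0, Timp2 rose over time, Timp4 fell and Timp3 showed no call. Timp1 (ENSMUSG00000001131.11, chrX:20870166-20874735, within an intron of Syn1 on the opposite strand, with no shared exonic base) had 0.967, 1.74 and 0 CPM in the sham libraries. It had 13.1, 16.8 and 15.5 CPM at 7 days, 5.91, 7.93 and 11.9 CPM at 1 month, and 4.12 and 10.7 CPM at 3 months. Every injured library lay above every sham library, and the 7-day libraries were the highest. The log2 change against sham was 3.99 ± 0.75 (SE) at 7 days (edgeR adjusted p = 0.00132), 3.18 ± 0.72 at 1 month (adjusted p = 0.00848) and 2.96 ± 0.76 at 3 months (adjusted p = 0.018). Sham replicate 2 carried much of the sham level, and without it the 3 log2 changes were 4.88, 4.01 and 3.77. The 3-month call did not survive without 3-month replicate 3 (log2 change 2.12, edgeR adjusted p = 0.234), and the 1-month and 3-month calls were lost when only the 2 groups compared were fitted (edgeR adjusted p = 0.0615 and 0.226).

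Timp2 (chr11:118301069-118355740), which both inhibits MMPs and, with Mmp14, takes part in activating pro-Mmp2, had 454, 244 and 392 CPM in sham cells. It had 494, 603 and 638 CPM at 7 days, 656, 794 and 757 CPM at 1 month, and 900 and 994 CPM at 3 months. None of the injured libraries overlapped sham, and the group means rose at each time, from 363 ± 108 (SD, n = 3) to 947 ± 66.7 CPM (n = 2). The log2 change against sham was 0.67 ± 0.21 at 7 days (edgeR adjusted p = 0.0325), 1.02 ± 0.21 at 1 month (adjusted p = 0.00401) and 1.38 ± 0.23 at 3 months (adjusted p = 0.000746). With 7-day replicate 2 or 3 left out the 7-day call was gone (edgeR adjusted p = 0.112 and 0.107), as it was when the 2 groups were modelled separately (0.111).

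Timp4 (chr6:115241892-115252205), an inhibitor with restricted expression that includes brain, moved the other way. It had 252, 165 and 174 CPM in sham cells and 143, 136 and 176 CPM at 7 days, which overlapped. At 1 month it had 95.6, 101 and 104 CPM and at 3 months 63.0 and 82.9 CPM, all below every sham library. The log2 change was -0.98 ± 0.19 at 1 month (edgeR adjusted p = 0.00271) and -1.43 ± 0.22 at 3 months (adjusted p = 0.000433), against -0.38 ± 0.19 at 7 days (adjusted p = 0.196). Between 7 days and 3 months it fell by 1.06 ± 0.22 on the log2 scale (edgeR adjusted p = 0.00901), a call lost without 3-month replicate 1 (adjusted p = 0.101). Timp3, the TIMP that is held in the matrix, ranged from 307 to 498 CPM over all 11 sorted libraries and its groups overlapped sham at every time. It had no call in the 3 comparisons (edgeR adjusted p = 0.206, 0.915 and 0.996). Without sham replicate 2 it was called lower at 7 days (log2 change -0.42, edgeR adjusted p = 0.0488). Of its exonic bases, 21.3% are shared with Syn3 on the opposite strand, and whether reads were counted by strand is not stated.

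On a per-length scale, the share of Timp4 in the summed TIMP level went from 18.9% ± 2.73 (SD, n = 3) in sham to 11.1% ± 1.29 at 7 days, 6.42% ± 0.342 at 1 month and 3.91% ± 0.388 (n = 2) at 3 months. The share of Timp2 went from 51.6% ± 3.31 to 63.9% ± 2.28, 71.1% ± 1.09 and 77.2% ± 1.83. Timp1 made up 0.665% ± 0.767 in sham and 7.34% ± 0.463 at 7 days, then 3.61% ± 1.13 and 2.58% ± 1.42. These shares describe the makeup of TIMP RNA and were not tested. Over the same times the summed astrocyte markers lay between 2994 and 4060 CPM in sham, and after injury between 2224 and 2647 (7 days), 1131 and 1220 (1 month), and 977 and 1045 CPM (3 months), with no marker at 0. Their part in the fall of Timp4 was not tested.

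**Figure D2:**
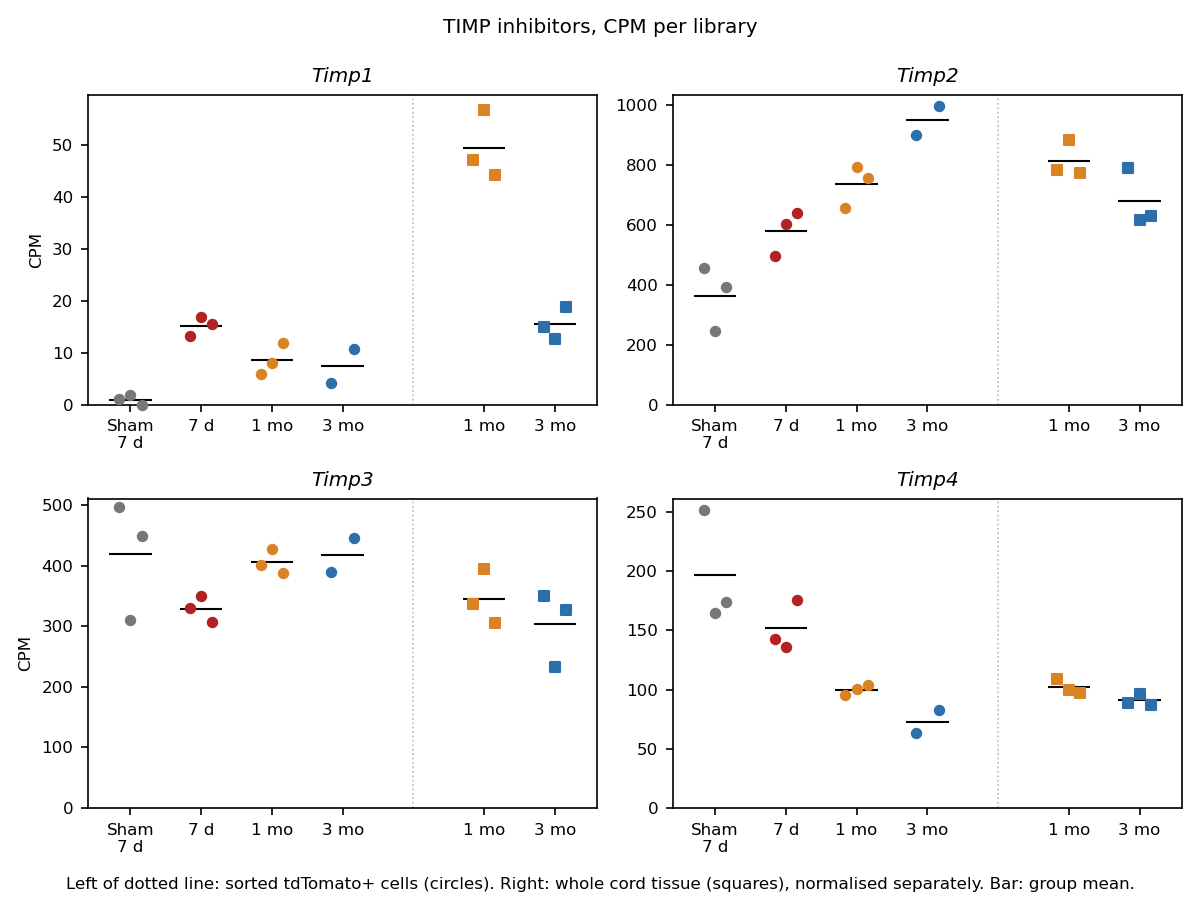
CPM of the 4 TIMP genes in every cord library (points, circles for sorted cells and squares for whole tissue) with the group mean as a bar. Timp2 rises from sham to 3 months in sorted cells, Timp4 declines, and Timp1 is highest in the 1-month tissue libraries (44.2 to 56.7 CPM).

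Mmp12, the macrophage elastase, gained more than any other member that had counts in sham. The sham libraries had 0.343, 0 and 0 CPM, which was 11 counts in all. The 7-day libraries had 2.11, 5.59 and 7.50 CPM, the 1-month libraries 35.7, 42.4 and 50.6 CPM and the 3-month libraries 117 and 174 CPM. No 2 of the 4 groups overlapped, and each later group lay above the one before it. Against sham the log2 change was 5.18 ± 0.67 (edgeR adjusted p = 6.92e-05), 8.25 ± 0.67 (adjusted p = 1.9e-06) and 10.02 ± 0.70 (adjusted p = 5.66e-07). These folds rest on the 11 counts of sham replicate 1, without which the sham group was at 0 counts. The test kept its call without that library (edgeR adjusted p = 2.03e-05, 8.15e-07 and 1.44e-07).

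Between injured groups, Mmp12 was also higher at 1 month than at 7 days (log2 change 3.07 ± 0.46, edgeR adjusted p = 0.0026) and at 3 months than at 7 days (4.84 ± 0.51, adjusted p = 8.09e-05). From 1 to 3 months the log2 change was 1.76 ± 0.46 and was not called (edgeR adjusted p = 0.128). Microglia and macrophage markers summed to 326 to 1351 CPM in sham, and after injury to between 4147 and 6470 (7 days), 3198 and 5014 (1 month), and 8460 and 10919 CPM (3 months), with none of the 8 at 0. Their part in the rise of Mmp12 was not tested. In whole tissue Mmp12 had 27.4, 31.9 and 22.8 CPM at 1 month and 26.4, 37.9 and 41.3 CPM at 3 months, which overlapped (edgeR adjusted p = 0.228).

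Mmp3 (stromelysin-1, which cleaves many matrix proteins and activates other MMPs) appeared late. It had 0 counts in all 3 sham and all 3 7-day libraries, where a floor of 3 counts over the group corresponds to 0.0383 CPM in sham and 0.0272 CPM at 7 days. At 1 month it had 11.3, 3.87 and 13.6 CPM and at 3 months 11.8 and 10.3 CPM. All later libraries were thus above all earlier ones, and the 1-month and 3-month ranges overlapped. Against the sham floor Mmp3 was at least 251-fold higher at 1 month (edgeR adjusted p = 8.73e-05) and at least 288-fold higher at 3 months (adjusted p = 6.42e-05). Against the 7-day floor it was at least 353-fold higher at 1 month (edgeR adjusted p = 0.00103) and at least 406-fold higher at 3 months (adjusted p = 0.000195). These limits depend on how many counts the group at 0 holds in all. Without sham replicate 1 or 2 those against sham were 148 and 155-fold at 1 month and 170.4 and 179-fold at 3 months, and without 7-day replicate 3 those against 7 days were 218 and 251-fold.

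Mmp13 (collagenase-3) had 0 counts in the sham libraries and 2.11, 0.876 and 0.572 CPM at 7 days, at least 31.0-fold higher than the sham floor (edgeR adjusted p = 0.0438). It had 2.46, 1.49 and 0 CPM at 1 month and 0.277 and 0 CPM at 3 months. The 7-day libraries stood clear of sham and the later groups did not, and the 7-day call was lost whichever of the 6 libraries was left out (edgeR adjusted p = 0.0648 to 0.114). The lower limit of 31.0-fold became 18.9-fold without 7-day replicate 1, 18.3-fold without sham replicate 1 and 19.2-fold without sham replicate 2. Among the other cluster genes, Mmp10 stayed at or below 1.18 CPM in any sorted library. Mmp8 had 2.93, 4.08 and 5.03 CPM at 7 days, above Mmp13, and 0.0312, 2.52 and 0 CPM in sham. Mmp27 had 1.17, 1.10 and 1.76 CPM at 7 days and 0.156, 0 and 0 CPM in sham. For Mmp8 and Mmp27 every 7-day library lay above every sham library, yet neither gene was called. Mmp12 and Mmp1b share 157 exonic bases on opposite strands, which counting without strand would mix.

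Among the constitutively expressed MMPs, changes were smaller and differed in time. Mmp2 (gelatinase A) had 100.2, 108 and 140 CPM in sham, 174, 167 and 229 CPM at 7 days and 206, 208 and 199 CPM at 1 month. Both injured groups lay above sham. The log2 change was 0.71 ± 0.17 at 7 days (edgeR adjusted p = 0.00854) and 0.81 ± 0.17 at 1 month (adjusted p = 0.00528). The 7-day call ended when the 2 groups were modelled separately (adjusted p = 0.0555). At 3 months Mmp2 had 126 and 143 CPM, which overlapped sham and was not called.

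The membrane-type MMPs are tethered at the cell surface, where Mmp14 activates pro-Mmp2. Mmp14 had 98.8, 122 and 126 CPM in sham and 165 and 222 CPM at 3 months, a log2 change of 0.74 ± 0.18 (edgeR adjusted p = 0.0125). The 3-month libraries did not overlap sham, but the call did not survive without 3-month replicate 3 (adjusted p = 0.243) and when the 2 groups were modelled separately (0.148). Mmp15 had 227, 313 and 262 CPM in sham and 480, 465 and 460 CPM at 1 month, the highest group without overlap (log2 change 0.81 ± 0.18, edgeR adjusted p = 0.00725). At 3 months its 269 and 338 CPM overlapped sham and were not called.

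Mmp16 ended lower than it had been earlier after injury. It had 234, 196 and 192 CPM at 7 days, 207, 194 and 186 CPM at 1 month and 107 and 92.0 CPM at 3 months. The 3-month libraries were the lowest of all groups, with sham at 124, 175 and 152 CPM. The log2 change was -1.05 ± 0.19 against 7 days (edgeR adjusted p = 0.00402) and -0.97 ± 0.19 against 1 month (adjusted p = 0.0402). The first call did not survive without 3-month replicate 3 (edgeR adjusted p = 0.0706), and the second was lost under another scaling of library sizes (0.0504), with the replicate number as a block (0.0743) and with any 1 of the 5 libraries left out (0.0993 to 0.335).

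**Figure D3:**
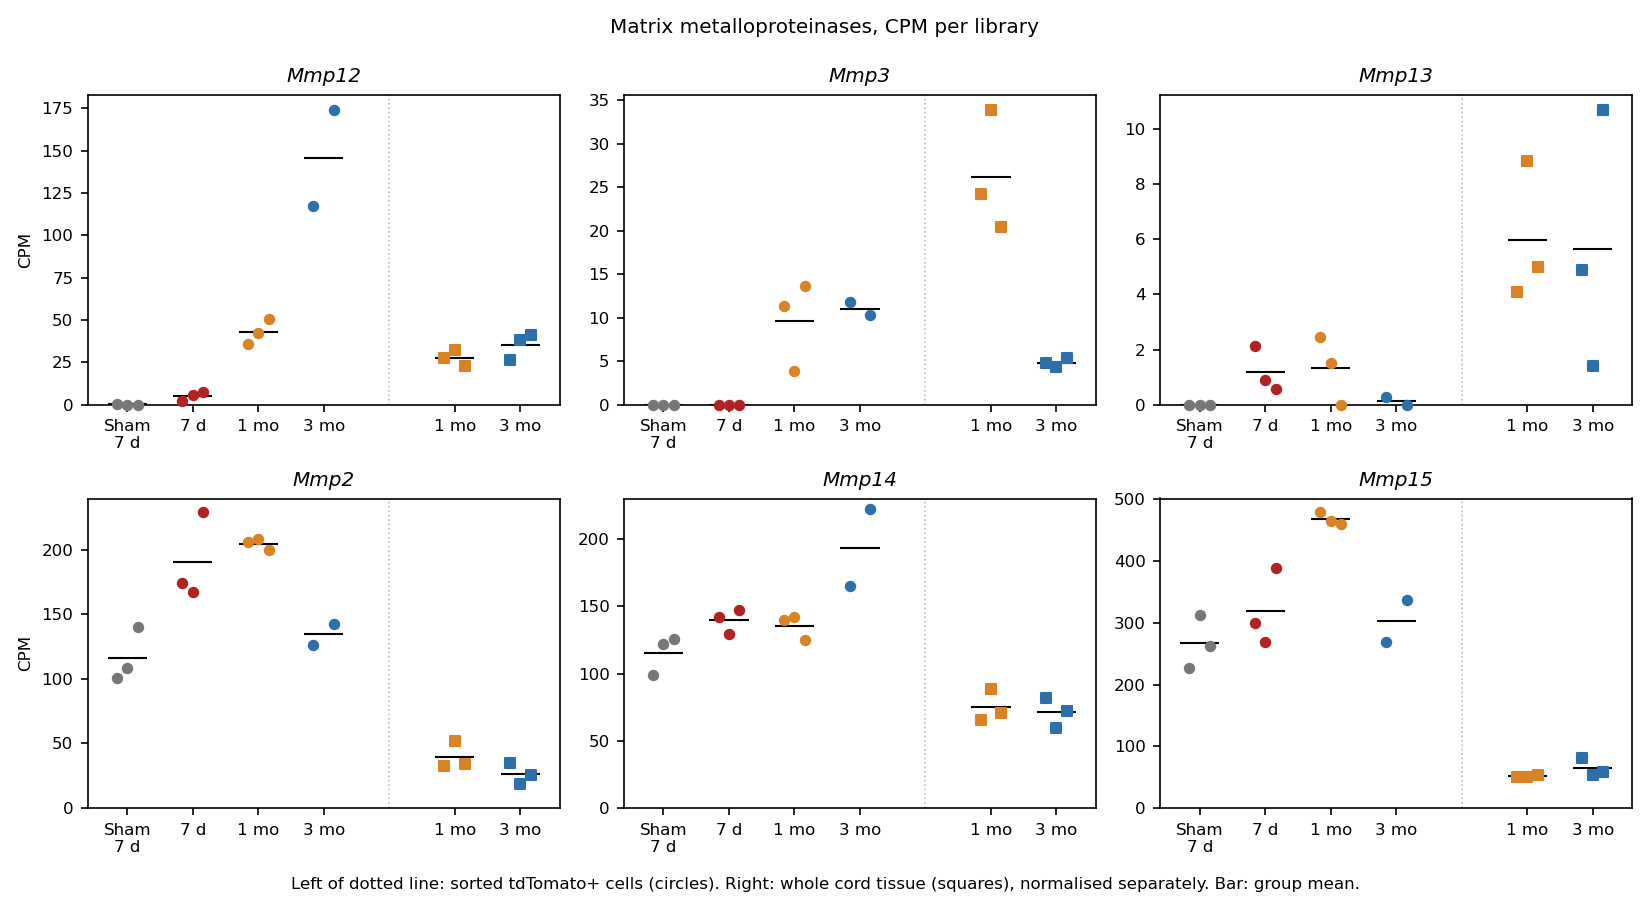
CPM of 6 Mmp genes in every cord library (points) with group means as bars, each panel on its own axis from 0. Mmp12 climbs to 117 and 174 CPM in the 3-month sorted libraries, Mmp3 is at 0 in sham and 7-day cells, and Mmp15 peaks at 1 month.

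The hyalectan-cleaving ADAMTS proteases act on versican, aggrecan, brevican and neurocan, the proteoglycans of perineuronal nets and glial scar. Of these 7 members, 2 were higher and 1 lower at 7 days (9.87% and 8.41% of all genes), 3 higher and 1 lower at 1 month (6.23% and 5.83%), and 0 higher and 1 lower at 3 months (6.78% and 4.93%). Adamts1 had 281, 208 and 454 CPM in sham and 439, 341 and 326 CPM at 7 days, which overlapped. At 1 month it had 918, 750 and 748 CPM, above all other groups, and at 3 months 542 and 435 CPM. The log2 change at 1 month was 1.36 ± 0.24 against sham (edgeR adjusted p = 0.0015) and 1.13 ± 0.24 against 7 days (adjusted p = 0.023). The second of these calls did not survive without 7-day replicate 2 or 3 or any 1-month library (edgeR adjusted p = 0.0783 to 0.151).

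Adamts4 and Adamts9 were highest at 7 days. Adamts4, a main aggrecanase, had 7.36, 6.07 and 5.45 CPM in sham, 25.2, 16.8 and 22.1 CPM at 7 days, 13.8, 13.5 and 9.44 CPM at 1 month and 9.27 and 11.2 CPM at 3 months. All injured libraries lay above sham. The log2 change was 1.76 ± 0.29 at 7 days (edgeR adjusted p = 0.000475) and 0.96 ± 0.28 at 1 month (adjusted p = 0.0375), while 0.70 ± 0.31 at 3 months was not called (adjusted p = 0.177). The 1-month call was lost with the replicate number as a block (edgeR adjusted p = 0.0545), when the 2 groups were modelled separately (0.184), without sham replicate 2 (0.057) or 3 (0.0685) and without 1-month replicate 1 (0.132) or 2 (0.121).

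Adamts9, a versican-cleaving protease, had 16.4, 31.4 and 27.8 CPM in sham and 75.1, 61.7 and 66.5 CPM at 7 days (a log2 change of 1.43 ± 0.23 with edgeR adjusted p = 0.000465). It had 62.1, 44.4 and 59.7 CPM at 1 month (1.14 ± 0.23, adjusted p = 0.00402) and 24.3 and 20.1 CPM at 3 months. The first 2 injured groups stood above sham and the last overlapped it. From 7 days to 3 months Adamts9 fell by 1.61 ± 0.27 on the log2 scale (edgeR adjusted p = 0.00268), a call lost without 3-month replicate 3 (adjusted p = 0.0522). From 1 to 3 months it fell by 1.32 ± 0.27 (edgeR adjusted p = 0.0483), a call lost under another scaling of library sizes (0.0611), with the replicate number as a block (0.0673) and with any 1 library left out (0.0802 to 0.361).

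Adamts20, which also cleaves versican and lies at chr15:94270163-94465418, was the member called lower at all 3 times. It had 192, 273 and 230 CPM in sham, then 157, 145 and 117 CPM at 7 days, 138, 122 and 107 CPM at 1 month, and 137 and 73.6 CPM at 3 months. Every injured library was below every sham library. The log2 change was -0.73 ± 0.22 (edgeR adjusted p = 0.0288), -0.92 ± 0.22 (adjusted p = 0.0109) and -1.14 ± 0.25 (adjusted p = 0.00752). The 7-day call ended on leaving out sham replicate 2 (edgeR adjusted p = 0.166) or, of the 7-day libraries, replicate 2 (0.0907) or 3 (0.16), the 1-month call without 1-month replicate 2 (0.0587) or 3 (0.0839), and the 3-month call without 3-month replicate 3 (0.153) and when the 2 groups were modelled separately (0.0545). The remaining hyalectan-cleaving members, Adamts5, Adamts8 and Adamts15, were not called against sham, with Adamts5 between 15.9 and 53.8 CPM, Adamts8 between 1.75 and 7.29 CPM and Adamts15 between 0.303 and 5.56 CPM over the sorted libraries.

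The procollagen N-proteinases trim the amino-terminal propeptide of fibrillar procollagens. Adamts2 had 6.71, 9.26 and 7.57 CPM in sham, 19.6, 22.3 and 19.0 CPM at 7 days, 21.1, 23.5 and 28.2 CPM at 1 month and 15.5 and 19.0 CPM at 3 months. All 8 injured libraries lay above the 3 sham libraries. The log2 change was 1.37 ± 0.24 (edgeR adjusted p = 0.000844), 1.63 ± 0.24 (adjusted p = 0.000396) and 1.14 ± 0.26 (adjusted p = 0.00963). The 3-month call did not survive without 3-month replicate 3 (edgeR adjusted p = 0.114) and when the 2 groups were modelled separately (0.207). Adamts3 moved the other way at 7 days, from 6.24, 23.9 and 16.3 CPM in sham to 4.44, 6.16 and 3.79 CPM. The groups were apart by a small margin, and the fall of 1.69 ± 0.49 on the log2 scale (edgeR adjusted p = 0.0231) ended on leaving out sham replicate 2 (0.157) or, of the 7-day libraries, replicate 1 (0.0807) or 3 (0.111). Adamts14 had 0.967, 0.872 and 0 CPM in sham and 4.17 to 5.23 CPM at 7 days, and was not called.

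Of 7 fibrillar procollagen genes, the substrates of these enzymes, all 7 were called higher at 7 days (9.87% of all genes) and 6 at 1 month (6.23%). At 3 months 4 were higher (6.78%) and 1, Col2a1, was lower (4.93%). Col1a1 averaged 55.7 CPM in sham, 1202 CPM at 7 days, 486 CPM at 1 month and 313 CPM at 3 months. Of the 8 fibroblast markers, Pdgfra, which oligodendrocyte precursors also express, made up most of the sum in sham (2133 to 2663 CPM) and was lower at 7 days (1499 to 1843 CPM). The other 7, which include Col1a1, summed to between 151 and 590 CPM in sham, and after injury to between 4262 and 4370 (7 days), 2388 and 2603 (1 month), and 2047 and 2048 CPM (3 months), with no marker at 0. Their part in the rises of Adamts2, Mmp2 and Timp1 was not tested.

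Adamts7 and Adamts12, which cleave cartilage oligomeric matrix protein, were both higher at 7 days. Adamts7 had 5.21, 5.37 and 5.51 CPM in sham and 12.8, 16.1 and 18.6 CPM at 7 days (a log2 change of 1.56 ± 0.36 with edgeR adjusted p = 0.00591). At 3 months it had 9.82 and 23.0 CPM (1.61 ± 0.39, adjusted p = 0.0128). Both groups lay above sham, but the 3-month value rested on replicate 3, without which the log2 change was 0.86 (edgeR adjusted p = 0.353), and the call ended when the 2 groups were modelled separately (0.106). Adamts12 had 0.904, 0.0671 and 0.363 CPM in sham, 10.04, 10.5 and 7.34 CPM at 7 days, 3.45, 3.79 and 4.24 CPM at 1 month and 2.66 and 1.14 CPM at 3 months. Its log2 change was 4.35 ± 0.76 at 7 days (edgeR adjusted p = 0.000762) and 3.07 ± 0.72 at 1 month (adjusted p = 0.0102), and 2.07 ± 0.75 at 3 months was not called (adjusted p = 0.0921). Without sham replicate 1, the highest sham library, the first 2 values were 5.55 and 4.27, and the 1-month call ended when the 2 groups were modelled separately (edgeR adjusted p = 0.118).

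Adamts17, linked to fibrillin microfibrils, had 5.55, 4.46 and 3.27 CPM in sham and 16.1, 18.6 and 24.8 CPM at 7 days (a log2 change of 2.15 ± 0.34 with edgeR adjusted p = 0.00035). It had 10.9, 14.0 and 22.1 CPM at 1 month (1.82 ± 0.34, adjusted p = 0.00208) and 8.49 and 11.1 CPM at 3 months (1.14 ± 0.36, adjusted p = 0.0545, not called). All injured libraries were above sham. Adamts16 was lower at 3 months, with 5.28 and 6.52 CPM against 20.9, 12.7 and 9.99 CPM in sham (log2 change -1.30 ± 0.39, edgeR adjusted p = 0.0386). The groups did not overlap, but the call did not survive without sham replicate 1 (adjusted p = 0.11) or either 3-month library (0.179 and 0.149) and when the 2 groups were modelled separately (0.206).

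**Figure D4:**
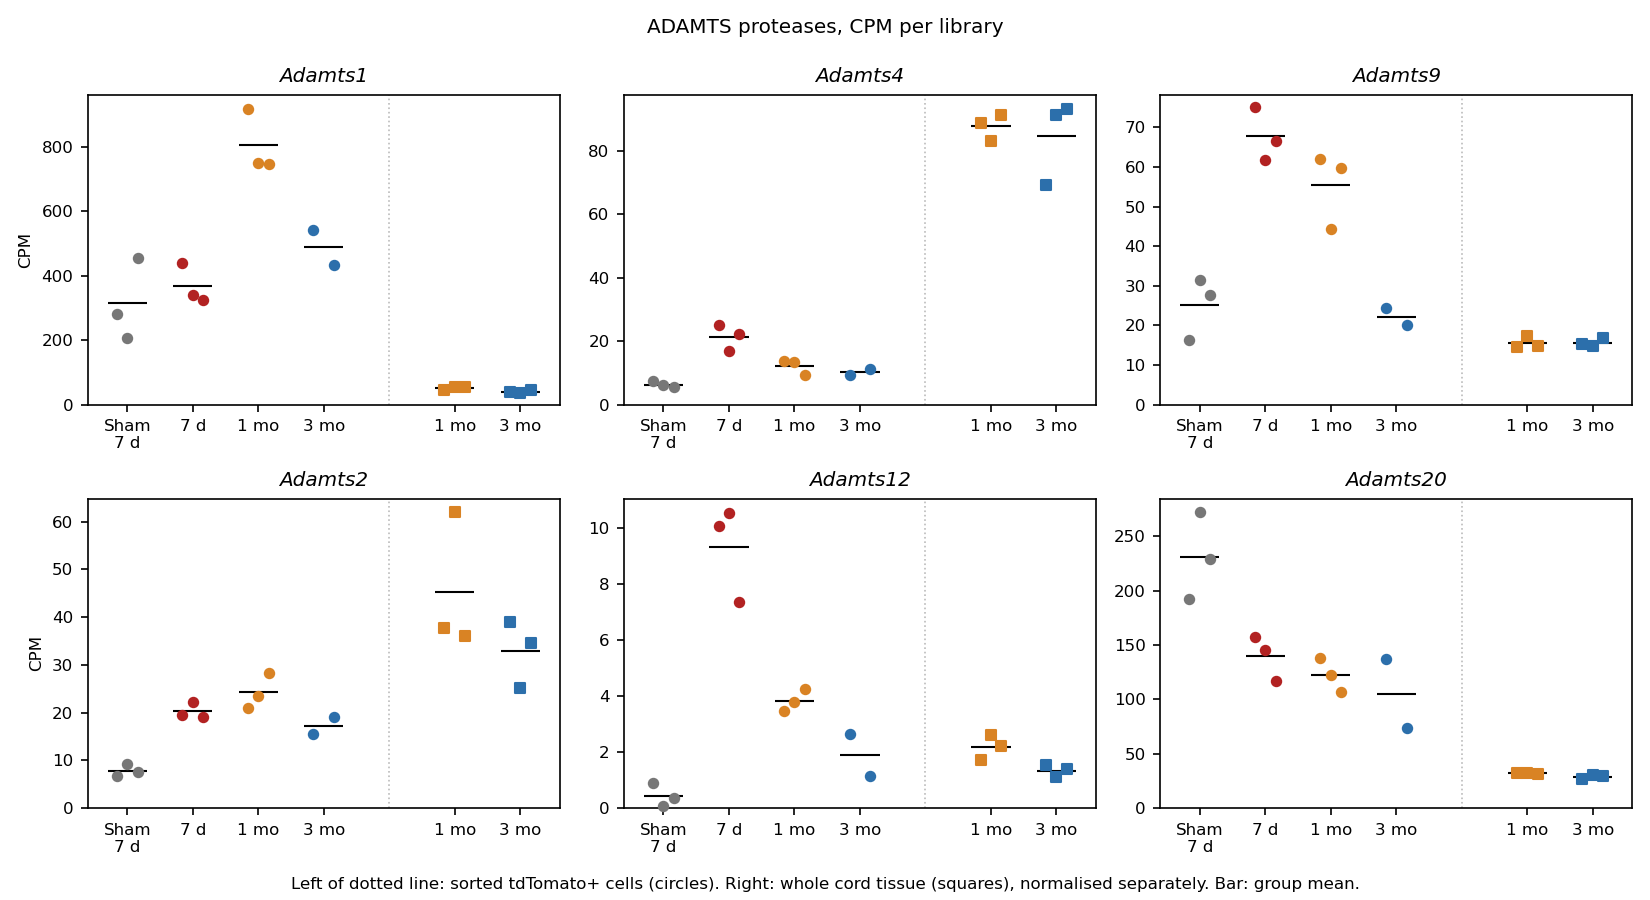
CPM of 6 Adamts genes in every cord library (points) with group means as bars, each panel on its own axis from 0. Adamts4, Adamts9 and Adamts12 are highest in sorted cells at 7 days, Adamts1 at 1 month (748 to 918 CPM), and Adamts20 is highest in sham.

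Between the injured sorted groups, few members were called. From 7 days to 1 month 3 were higher (Mmp3, Mmp12 and Adamts1, background 1.52%) and 0 lower (1.09%) with edgeR. DESeq2 called 1 lower (4.48%). In either direction 8 of the 40 tested members had an unadjusted edgeR p under 0.05. Over all 24286 genes tested, 1696 higher and 2000 lower genes had one. From 7 days to 3 months 2 were higher (Mmp12 and Mmp3, 2.53%) and 3 lower (Adamts9, Mmp16 and Timp4, 3.52%). From 1 to 3 months 0 were higher (0.103%) and 2 lower (Mmp16 and Adamts9, 0.284%) with edgeR, and DESeq2 also called 0 higher (1.2%). An unadjusted edgeR p under 0.05 was reached by 9 of the 40 members, and over all 24286 genes by 1323 higher and 1536 lower. The members with no call in any sorted comparison included the gelatinase Mmp9, which stayed at or below 5.95 CPM, the collagenase Mmp8, Mmp25 at or below 3.10 CPM, and Mmp17, which ranged from 39.4 to 71.8 CPM. Over the 11 libraries the others ranged from 3.75 to 14.2 CPM for Mmp11, 1.14 to 10.3 for Mmp19, 0.998 to 6.31 for Mmp23, 7.72 to 17.9 for Mmp24 and 4.28 to 10.4 for Mmp28. Among uncalled ADAMTS genes Adamts10 ranged from 29.6 to 75.9 CPM and Adamts6 from 5.99 to 37.2 CPM. Mmp21, Adamts18 and Adamts19 stayed at or below 0.952, 1.13 and 0.779 CPM.

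Whole tissue at the injury site differed between 1 and 3 months in a few members. Of 38 tested, 2 were higher at 3 months (Mmp25 and Adamts3, background 6.69% of 19652 genes) and 4 lower (Mmp3, Timp1, Mmp19 and Adamts10, 8.01%), with a median log2 change of -0.08 beside -0.00 over all genes. Without overlap, 6 members lay above and 8 below their 1-month libraries at 3 months, and the share over all genes was not computed. Mmp3 had 24.2, 33.9 and 20.4 CPM at 1 month and 4.81, 4.30 and 5.38 CPM at 3 months. The groups were far apart, and Mmp3 fell by 2.44 ± 0.20 on the log2 scale (edgeR adjusted p = 0.00221). Timp1 had 47.1, 56.7 and 44.2 CPM at 1 month and 14.8, 12.5 and 18.8 CPM at 3 months, also without overlap, and fell by 1.68 ± 0.16 (adjusted p = 0.00293). In the same comparison 7 of 8 microglia and macrophage markers were lower (median log2 change -1.10, summed 4312 to 5905 CPM at 1 month and 1743 to 2613 CPM at 3 months). Of the fibroblast markers 2 of 8 were lower, Postn and Fn1 (summed 2081 to 3678 CPM and 1161 to 2191 CPM). None of either list was at 0, and their part in the falls of Mmp3, Timp1 and Mmp19 was not tested. Timp1 made up 17.1% ± 0.763 (SD, n = 3) of the per-length TIMP level in tissue at 1 month and 7.16% ± 1.56 at 3 months.

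Timp2 had 781, 880 and 772 CPM in tissue at 1 month and 788, 615 and 629 CPM at 3 months, and was not called (edgeR adjusted p = 0.158). Without 3-month replicate 1, the library that overlapped, Timp2 was called lower (log2 change -0.38, edgeR adjusted p = 0.0107). Mmp19 had 18.5, 19.3 and 14.7 CPM at 1 month and 11.4, 9.88 and 11.6 CPM at 3 months, Adamts10 had 86.4, 96.0 and 85.8 CPM and 69.6, 48.9 and 56.9 CPM, and Adamts3 had 3.24, 3.28 and 3.90 CPM and 4.85, 5.76 and 6.46 CPM. None of the 3 overlapped. Their log2 changes were -0.67 ± 0.13 (edgeR adjusted p = 0.0184), -0.61 ± 0.12 (adjusted p = 0.0209) and 0.71 ± 0.16 (adjusted p = 0.0299). Each of these calls was lost with the replicate number as a block (edgeR adjusted p = 0.0707, 0.0647 and 0.0719) and with several single libraries left out (0.0562 to 0.0942 for Mmp19, 0.0534 to 0.0913 for Adamts10 and 0.0555 to 0.115 for Adamts3).

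Tissue replicate 1 at 3 months stood apart in the proteases that neutrophils store in granules or carry on their surface. Mmp8, the neutrophil collagenase, had 52.9 CPM there against 8.21 and 6.50 CPM in the other 3-month libraries and 2.38, 3.34 and 2.58 CPM at 1 month. Mmp9, gelatinase B, had 105 CPM against 18.4 and 21.0 CPM and 7.55, 9.43 and 9.89 CPM at 1 month. Mmp25, a membrane-anchored MMP of leukocytes, had 20.4 CPM against 2.92 and 6.05 CPM, and 0.795, 0.633 and 0.659 CPM at 1 month. All 3 genes were higher in every 3-month than in every 1-month library, with replicate 1 several times above the others. Mmp25 was called (log2 change 3.81 ± 0.79, edgeR adjusted p = 0.0217), whereas Mmp8 and Mmp9 were not (3.02 ± 0.85, adjusted p = 0.0534, and 2.42 ± 0.69, adjusted p = 0.0541).

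The 8 neutrophil markers summed to 2406 CPM in that library, 263 and 254 CPM in the other 3-month libraries and 42.1 to 82.1 CPM at 1 month. Of these 8 markers, 6 were called higher (6.69% of all genes). Their part in these values was not tested. Without replicate 1 the log2 change of Mmp25 was 2.68 (edgeR adjusted p = 0.00224), and 5 members were called higher and 9 lower (14.6% and 15.7% of all genes). The Mmp25 call did not survive without any 1 of the 3 1-month libraries (edgeR adjusted p = 0.0987, 0.0963 and 0.0724) or without 3-month replicate 3 (0.0509). In sorted cells the neutrophil markers summed to at most 66.7 CPM. Ly6g, Elane and Mpo were at 0 in the 7-day and 1-month groups.

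Set side by side, with the 2 tables normalised separately and no test between them, Adamts4 had 83.1 to 93.3 CPM in all tissue libraries but 3-month replicate 1 (69.1 CPM), and at most 25.2 CPM in sorted cells. Adamts1 had 34.4 to 55.5 CPM in tissue and 208 to 918 CPM in sorted cells. Mmp15 had 50.2 to 80.4 CPM in tissue and 227 to 480 CPM in sorted cells, and Mmp2 had 18.3 to 51.6 CPM and 100.2 to 229 CPM. Timp1 was higher in all 1-month tissue libraries (44.2 to 56.7 CPM) than in any sorted library (at most 16.8 CPM). Oligodendrocyte markers summed to 18268 to 26802 CPM in tissue and 376 to 1838 CPM in sorted cells, and their part in these levels was not tested.

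In the control astrocyte cultures Timp1 and Timp2 had the highest mean levels of the members per kilobase. Timp1 led per kilobase at 757 CPM per kb in the Zeb2os controls and 910 CPM per kb in the Zeb2 controls, followed by Timp2 at 233 and 634 CPM per kb. Timp1 made up 68.4% ± 10.2 (SD, n = 2) and 49.6% ± 9.61 of the per-length TIMP level in these 2 control groups, and Timp4 0.137% ± 0.0222 and 0.0988% ± 0.0833. The cultures also held pericyte and smooth muscle markers at a summed 2817 to 16166 CPM, against 43.7 to 84.1 CPM in the sorted cord cells, and all fibroblast markers (7085 to 18951 CPM). Their part in the culture levels was not tested.

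In the libraries labelled Zeb2os knockdown, edgeR called none of the 38 tested members (0 higher, background 0.121%, and 0 lower, 0.0675% of 20741 genes). An unadjusted edgeR p under 0.05 was found for 12 members, and over all 20741 genes for 1031 higher and 1393 lower. DESeq2 called 6 members higher and 2 lower (background 1.85% and 2.01%). Timp1 had 868 and 476 CPM in controls and 1452 and 1644 CPM in the libraries labelled knockdown (log2 change 1.20 ± 0.30, edgeR adjusted p = 0.164). Timp2 had 899 and 913 CPM against 1410 and 1443 CPM (0.65 ± 0.22, adjusted p = 0.297), and Timp3 had 674 and 853 CPM against 1249 and 1216 CPM (0.69 ± 0.24, adjusted p = 0.297). The groups of these 3 inhibitors did not overlap. DESeq2 called all 3 (adjusted p = 0.00173, 0.0383 and 0.0432). Mmp14 had 328 and 253 CPM in controls and 597 and 599 CPM in the libraries labelled knockdown (1.04 ± 0.24, edgeR adjusted p = 0.136). Mmp12 had 9.45 and 10.4 CPM against 19.4 and 22.5 CPM (1.08 ± 0.23, adjusted p = 0.114), and Mmp15 had 23.5 and 26.3 CPM against 13.9 and 12.2 CPM (-0.93 ± 0.22, adjusted p = 0.148). These 3 also did not overlap, with Mmp14 and Mmp12 above and Mmp15 below the controls, and none passed edgeR's threshold. Such separation was common here, with 13 of the 38 tested members above and 10 below the controls. With 2 libraries per group it does not mark a change by itself, and its share over all genes was not computed.

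The count of calls in the Zeb2os set turned on the setting. Without control replicate 1, 8 members were called higher and 4 lower, while the calls over all genes grew to 9.35% higher and 7.29% lower. Without control replicate 2, 7 were higher and 0 lower (1.04% and 0.853% of all genes), whereas leaving out either library labelled knockdown gave 0. With the replicate number as a block 3 were higher and 2 lower (1.22% and 1.45% of all genes), and without the low-count filter likewise 3 and 2 (0.82% and 1.17%). Timp1 was called with an edgeR adjusted p = 0.00628 without the filter, 0.00698 with the block, and 0.00012 and 0.0274 without control replicate 1 or 2. The summed astrocyte markers were 1135 and 1225 CPM in controls and 615 and 574 CPM in the libraries labelled knockdown, where Gfap was the 1 marker called lower. The part of these markers was not tested.

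In the Zeb2 set edgeR also called none of 36 tested members (0 higher and 0 lower, background 0.0% of 17609 genes in each direction). An unadjusted edgeR p under 0.05 was found for 8 members, and over all 17609 genes for 273 higher and 410 lower. DESeq2 called 0 members (0.0985% of all genes in each direction). Timp1 had 653 and 962 CPM in controls and 136 and 787 CPM after knockdown, which overlapped. Timp2 had 2698 and 2243 CPM against 443 and 1302 CPM (log2 change -1.50 ± 0.56), and Timp3 had 2349 and 2132 CPM against 957 and 1196 CPM (-1.06 ± 0.34). These 2 inhibitors were lower without overlap, yet with an edgeR adjusted p = 0.999 each. Of the 36 tested members, 3 lay above and 6 below the controls without overlap, and the share over all genes was not computed. Knockdown replicate 1 stood apart from replicate 2 in Timp1, Timp2, Adamts1 (51.4 against 235 CPM) and Adamts14 (12.1 against 53.6 CPM). Without knockdown replicate 2, 1 member was called higher and 4 lower (0.727% and 1.52% of all genes), among them Timp1 and Timp2 (edgeR adjusted p = 0.0372 and 0.0339), and without the filter 1 was lower (0.184% of all genes), Timp2 (adjusted p = 0.0424). Pericyte and smooth muscle markers summed to 2817 CPM in knockdown replicate 1, 7574 CPM in replicate 2 and 8214 and 11303 CPM in controls, and their part was not tested.

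**Figure D5:**
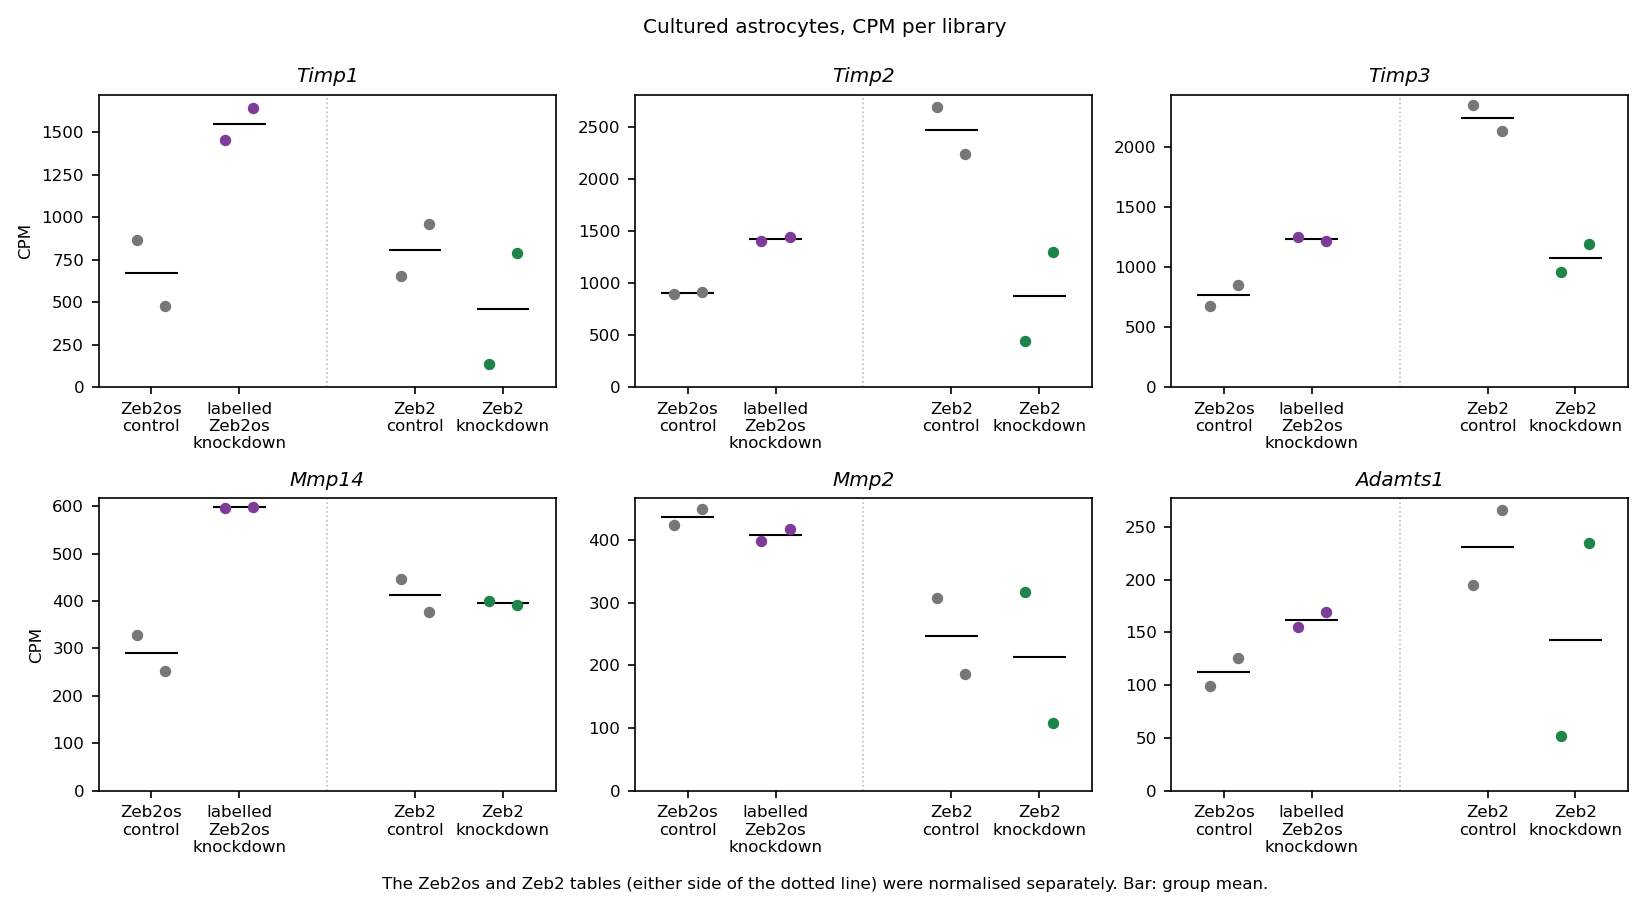
CPM of 3 TIMP and 3 protease genes in the 8 culture libraries (points) with group means as bars, the 2 experiments on either side of the dotted line. Timp1, Timp2, Timp3 and Mmp14 are higher in both libraries labelled Zeb2os knockdown than in both controls, and the Zeb2 knockdown libraries lie far apart for Timp1 (136 and 787 CPM).

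Proteins that switch the proteases on, or share their substrates, were followed in 6 lists. The lists were chosen with earlier results of these data known. Over all genes, 9.87%, 6.23% and 6.78% were higher and 8.41%, 5.83% and 4.93% lower at the 3 times against sham. In plasminogen activation, the proteolytic route that can activate pro-MMPs, 4 of 10 tested genes were higher and 0 lower at 7 days against sham, and 3 higher and 0 lower at 1 and at 3 months. Plau (urokinase) averaged 10.5 CPM in sham and 63.3, 105 and 156 CPM at the 3 times, a log2 change of 2.60 ± 0.21, 3.33 ± 0.22 and 3.91 ± 0.23 (edgeR adjusted p = 1.31e-06, 2.44e-07 and 1.04e-07). Plaur, its receptor, averaged 3.90 CPM in sham and 61.6 CPM at 3 months (4.01 ± 0.39, edgeR adjusted p = 6.86e-06). In tissue 1 gene of this list was higher and 6 were lower at 3 months than at 1 month, Plau among the lower (6.69% and 8.01% of all genes). In the Zeb2os set Plau (25.0 to 74.0 CPM, log2 change 1.57 ± 0.21, edgeR adjusted p = 0.0306) and Plaur (23.8 to 72.1 CPM, 1.60 ± 0.25, adjusted p = 0.0464) were called higher. Over all genes in that set 0.121% were called higher.

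The ADAM sheddases are membrane relatives that release cell-surface proteins, and some of them, not all, are also held in check by TIMPs. Of 8 such genes, 6, 5 and 5 were higher and 0 lower at the 3 times. The shares over all genes, also for the lists below, were 9.87%, 6.23% and 6.78% higher and 8.41%, 5.83% and 4.93% lower. Adam8 averaged 2.63 CPM in sham and 51.0, 45.2 and 73.4 CPM after injury (log2 change 4.23 ± 0.46, 4.06 ± 0.46 and 4.76 ± 0.49, edgeR adjusted p = 1.62e-05, 3.46e-05 and 1.17e-05). Of 10 genes for MMP activation and cell-surface control, 0 were higher and 1, Spock1, was lower at 7 days, and none was called against sham later. Of 8 hyalectans and link proteins, Vcan was higher and Bcan and Acan lower at 7 days, Bcan alone was lower at 1 month, and Bcan, Ncan and Acan were lower at 3 months. Bcan, the brevican cleaved by Adamts4, averaged 1333 CPM in sham and 482, 722 and 570 CPM after injury. The ADAMTS-like proteins, which lack a protease domain, had 1 of 7 higher and 1 lower at 7 days and 1 higher at 1 month (Adamtsl3). Each list mixes functions, and its counts describe these libraries only.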

How the data were processed

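Gene counts were used as the authors deposited them, in 4 tables of whole-number counts per gene and library: sorted cells, whole tissue, the Zeb2os set and the Zeb2 set. The submitters' processing notes list the build mm10 and, with no role given, DESeq2, FastQC, Cufflinks 2.2.1 and TopHat2 2.1.0. The counting program, its annotation and its strand setting are not given in the sources used here, while the library kit keeps strand per the labels' protocols. Genes were matched by identifier to GENCODE M21 (GRCm38) for positions and exonic lengths, and promoter windows came from RefSeq (GRCm38.p6). Columns were matched to samples by name, and groups came from the labels.

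Each table was fitted on its own with edgeR 4.0.16 (R 4.3.3, limma 3.58.1), with TMM scaling, the filterByExpr filter at a minimum count of 10, the quasi-likelihood test and Benjamini-Hochberg adjustment over all genes tested, at a threshold of 0.05. All 4 sorted groups shared 1 fit. CPM (counts-per-million) use TMM-scaled library totals, and SE is the absolute log2 change divided by the square root of F. A group at 0 counts was set to a floor of 3 counts over the group. Alternatives were RLE scaling, DESeq2 1.42.0, no filter, a filter at 30, the replicate number as a block, only the 2 groups compared, and each library left out. Common dispersion gave a biological coefficient of variation of 0.63 for sorted cells, 0.137 for tissue, 0.321 for the Zeb2os cultures and 0.399 for the Zeb2 cultures, so small changes were harder to detect in sorted cells. No 2 libraries were identical. The fits were tested on simulated data. The members, marker lists and related lists were chosen with earlier results of these data known. Named were the TIMPs, every called member, members not called by class, and up to 3 called genes per related list and comparison. Any other named member, and the side by side of tissue and sorted levels, was picked after its values were seen.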

Additional observations from a re-analysis of the deposited data

Results flagged for a closer look

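For 2 members, sorted cells and whole tissue moved opposite ways from 1 to 3 months. In each set every 3-month library lay outside the range of the 1-month libraries. The 2 were picked by this pattern, and its share over all genes was not computed. Mmp19, an MMP of several stromal and myeloid cells, had 5.29, 2.37 and 5.63 CPM at 1 month and 7.97 and 8.05 CPM at 3 months in sorted cells, against 18.5, 19.3 and 14.7 CPM and 11.4, 9.88 and 11.6 CPM in tissue. Its log2 change was 0.85 in sorted cells, which was not called, and -0.67 in tissue, which was, a difference of 1.53. Mmp15 had 480, 465 and 460 CPM and then 269 and 338 CPM in sorted cells, against 50.2, 50.3 and 53.7 CPM and 80.4, 53.9 and 58.4 CPM in tissue. Its log2 change was -0.63 in sorted cells and 0.32 in tissue, a difference of -0.95. Neither change of Mmp15 was called, and its tissue groups were apart only by 53.7 against 53.9 CPM. The difference between sorted cells and tissue was not tested, since the 2 tables were normalised separately. Of Mmp19's exonic bases, 22.3% are shared with Tmem198b on the opposite strand, so its counts are uncertain without knowing the strand setting.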

How the results depend on the processing

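Counts of called members (higher and lower) moved as follows, with the shares of all genes called in the same fit in brackets. With only the 2 groups compared, 3 and 1 were called at 3 months against sham (3.56% and 1.86%). At 1 month against 7 days 6 and 6 were called (6.72% and 8.25%). There were 10 lower at 3 months against 7 days (9.47%), and 2 and 7 at 3 months against 1 month (3.72% and 3.6%). DESeq2 gave 1 lower at 1 month (4.48%) and 5 lower at 3 months against 7 days (7.78%). It gave 4 higher in tissue (9.32%), and 6 and 2 in the Zeb2os cultures (1.85% and 2.01%). Without the filter there was 1 lower at 1 month against 7 days (2.14%), and 1 and 4 at 3 months against 1 month (1.28% and 1.06%). There were also 4 higher for tissue (4.48%), 3 and 2 for the Zeb2os cultures (0.82% and 1.17%), plus 1 lower for the Zeb2 cultures (0.184%). RLE scaling gave 0 lower at 3 months against 1 month (0.226%). The replicate block gave 0 lower at 3 months against 1 month (0.222%). It gave 1 and 2 for tissue (0.85% and 1.73%), and 3 and 2 for the Zeb2os cultures (1.22% and 1.45%). The higher and lower counts in the other comparisons stayed within 1.5 times. Same-numbered libraries correlated between -0.04 and 0.08 over 15 sorted pairs, between -0.27 and -0.01 for tissue, at -0.03 for the Zeb2os cultures and at 0.39 for the Zeb2 cultures (2 pairs). The labels do not say that a number marks a shared source, and 2 pairs cannot settle it, so the numbers were not taken to pair the samples.

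With each library left out in turn, the counts ranged from 9 to 14 higher and 0 to 3 lower at 7 days against sham, 11 to 13 and 1 to 3 at 1 month, 3 to 9 and 1 to 4 at 3 months, 2 to 3 and 0 to 0 at 1 month against 7 days, 2 to 2 and 1 to 3 at 3 months against 7 days, 0 to 0 and 0 to 0 at 3 months against 1 month, 0 to 5 and 2 to 9 for tissue, 0 to 8 and 0 to 4 for the Zeb2os cultures, and 0 to 1 and 0 to 4 in the Zeb2 set. Over all genes, the shares with a library left out ranged from 6.91% to 13.7% higher and 4.88% to 8.98% lower at 7 days against sham. They ranged from 4.11% to 8.85% and 3% to 6.48% at 1 month. At 1 month against 7 days they ranged from 0.346% to 0.642% and 0.156% to 0.276%, and for tissue from 0.377% to 14.6% and 1.22% to 15.7%. With a sham library left out, the shares at 3 months against sham were 6.65% to 9.14% and 4.56% to 6.44%. Without a 7-day library, those at 3 months against 7 days were 0.869% to 1.06% and 1.68% to 2.21%. Without a 1-month library, those at 3 months against 1 month were 0.0124% to 0.0165% and 0.0371% to 0.0659%. Leaving out a 3-month or culture library left 1 library in a group, and shares for those fits are not listed here. In groups left with 1 library, that library was assumed to vary like the others. The log2 change of Timp3, never called there, changed sign against sham at 3 months with RLE scaling (0.035) and DESeq2 (0.035), and with single libraries left out it ranged from -0.17 to 0.094 at 1 month and from -0.15 to 0.14 at 3 months. The cause of these shifts was not tested. A left-out library or a fit of 2 groups also leaves fewer samples. Members under 1 CPM rest on few counts.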
